A study of Mus musculus with 8 samples.

Results

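The genes described here encode 8 proteins known as binding partners or methylation substrates of CARM1, an arginine methyltransferase and transcriptional coactivator: Ncoa1, Ncoa2, Ncoa3, Gps2, Elavl1, Elavl4, Smarcc1 and Med12. They were chosen by name, and all 8 were among the 16349 genes of the table. All 8 also passed the filter on low values, which 15685 genes passed. Poly A RNA of mouse spermatids was sequenced in elongating Carm1 cKO cells, elongating WT cells, round Carm1 cKO cells and round WT cells, with 2 libraries in each group. Spermatids are haploid male germ cells, round at first, and later elongating as the nucleus condenses and the tail forms. All groups have the C57BL/6 background and were untreated, and each sample pooled 8 testes, from which cells were separated by centrifugal elutriation, a sorting by size. The labels call the knockout conditional (cKO) and name neither the Cre driver, the deleted exons nor the ages, and whether both libraries of a group stem from different animals is not stated. The p-values therefore measure a spread between libraries that may be technical.

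CARM1 is brought to promoters by the p160 coactivators NCOA1, NCOA2 and NCOA3, which bind hormone-bound nuclear receptors, and it methylates histone H3 and several of its partners there. GPS2 is a subunit of the NCoR corepressor complex, which also holds the deacetylase HDAC3. Among known CARM1 substrates are the RNA-binding proteins HuR (Elavl1) and HuD (Elavl4), which stabilise messages rich in A and U. Others are BAF155 (Smarcc1), a core subunit of the BAF chromatin remodelling complex, and MED12, a subunit of the CDK8 kinase module of Mediator. In spermatids most transcription ends as the nucleus condenses, so that elongating cells rely on stored messages.

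The targeted gene was measured first. Carm1 (chromosome 9, 21546894 to 21592623, GRCm38) had 8157 and 7993 normalised read counts in elongating KO-labelled libraries, against 4308 and 4534 in elongating WT libraries. At the round stage it had 1174 and 1343 in KO-labelled libraries, against 1649 and 1686 in WT libraries. Its log2 fold change, KO-labelled over WT, was 0.87 in elongating spermatids (SE 0.05, limma adjusted p = 2.65e-09) and -0.41 in round spermatids (SE 0.05, adjusted p = 3.76e-05). The elongating value runs counter to the knockout label. The cKO libraries are therefore named KO-labelled, and directions in elongating cells rest on labels that the target gene does not bear out. Gene totals cannot show whether deleted exons are absent. Carm1 shares up to 806 bases of exon with Yipf2 on the opposite strand, which the kit does not separate, and Yipf2 averaged 48.8 ± 2.33 in elongating KO-labelled and 75.8 ± 5.03 in elongating WT libraries (SD, n = 2 each).

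The libraries held 17190962 to 23526694 recovered reads. A normalised read count is a gene's read count over the library's size factor, set by the authors, and these factors were 0.516 and 0.530 in elongating KO-labelled, 0.776 and 0.693 in elongating WT, 1.57 and 1.77 in round KO-labelled and 1.57 and 1.65 in round WT libraries. The 50 genes most abundant on average took 34.8% to 34.9% of reads in elongating KO-labelled libraries, 31.9% in elongating WT, 7.08% to 7.22% in round KO-labelled and 7.06% to 7.12% in round WT libraries, so values between groups depend on the scaling. Markers of elongating spermatids (15 genes) took 15.7% to 15.8% of reads in elongating KO-labelled and 13.7% to 13.8% in elongating WT libraries, and all 15 rose with the KO label there. Round spermatid markers (14 genes) took 0.0292% to 0.0295% and 0.0488% to 0.0496% in the same groups, and 11 of 14 fell while 1, Crem, rose. Sertoli cell markers took 0.0153% to 0.0155% against 0.0327% to 0.0331%, with 11 of 17 lower, and macrophage and leukocyte markers 0.0157% to 0.0158% against 0.0467% to 0.0470%, with 14 of 15 lower. In round cells 7 of 14 round spermatid and 10 of 15 elongating spermatid markers rose with the KO label, and 0 fell. The Sertoli share in round cells was 0.00374% to 0.00379% in KO-labelled and 0.00582% to 0.00600% in WT libraries. The macrophage share there was 0.0107% in KO-labelled and 0.00287% to 0.00300% in WT libraries. Of these markers 6 of 15 were called higher and 0 lower, with a median log2 fold change of 0.54, and Fcgr3 rose most. The share is a sum and need not follow the median gene. Fcgr3 went against its list elsewhere: in elongating cells it was the 1 marker of 15 that rose with the KO label. Between stages in KO-labelled cells it was the 1 marker lower in elongating cells, while 14 were higher. Of the Sertoli markers 0 were higher and 8 of 17 lower in round cells. The Sertoli marker Fshr had 0 reads in both round KO-labelled libraries. Their part in the results below was not tested, and in such bulk samples fewer cells of a type and less RNA per cell cannot be told apart.

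With the KO label, Gps2 and Elavl4 were 1.795 and 2.03 times as high in elongating spermatids and were not called in round ones. Ncoa2 was higher by a smaller amount, Elavl1, Med12 and Smarcc1 were lower, and Ncoa1 and Ncoa3 did not pass the test. In elongating cells 3 members rose and 3 fell at an adjusted p under 0.05, where 27.3% of all genes tested rose and 27.7% fell. In round cells 0 rose and 1, Smarcc1, fell, where 19.4% of all genes rose and 12.6% fell. With total-count scaling, and equally without the 50 most abundant genes, 2 members rose and 6 fell in elongating cells, and 0 rose and 4 fell in round cells. Of all 15685 genes tested, total-count scaling gave 1394 rises and 9854 falls in elongating cells, and 2197 and 3060 in round cells. Without the 50 most abundant genes these were 1669 and 9280, and 2183 and 3010. With 8 members the elongating counts lie near the background, so what follows is about each gene and not about the set. The median log2 fold change of the members, KO-labelled over WT, was -0.14 in elongating and -0.05 in round cells, against -0.07 and 0.03 over all genes tested.

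**Figure D1:**
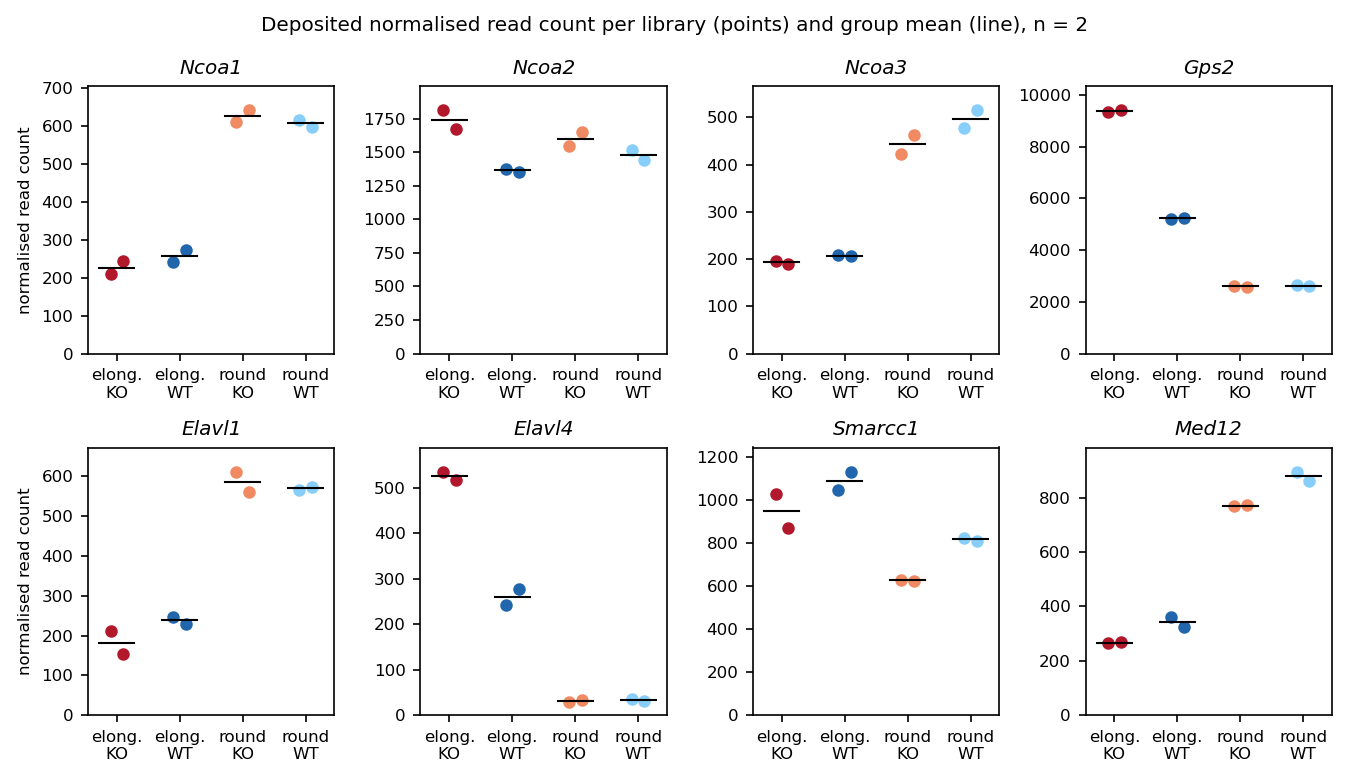
Normalised read count (y axis, linear from 0, its own scale per gene) of the 8 members in each of the 8 libraries, with elongating KO-labelled, elongating WT, round KO-labelled and round WT groups from left to right. Points are libraries and lines are means of 2; Gps2 and Elavl4 are highest in the elongating KO-labelled libraries, and Ncoa1, Ncoa3, Elavl1 and Med12 are higher in round than in elongating cells on this scale.

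Gps2 and Elavl4 are the members in which the effect of the KO label differed between stages under every scaling (values below), and their upstream sequences are shown for that reason. The letters of both come from RefSeq on GRCm38.p6, and the tables matched 6 of the 8 members with 9 promoters. The Elavl4 stretch is the 250 bases before the most upstream of its 4 RefSeq starts, chr4:110351912-110352161 on the minus strand. The Gps2 stretch is the 67 bases between the GENCODE end of Neurl4 and the GENCODE start of Gps2, chr11:69913821-69913887 on the plus strand, where both genes lie on the same strand. The RefSeq start of Gps2 lies 132 bases downstream of the GENCODE one, and the letters were counted in the 250 bases before the RefSeq start.
Elavl4: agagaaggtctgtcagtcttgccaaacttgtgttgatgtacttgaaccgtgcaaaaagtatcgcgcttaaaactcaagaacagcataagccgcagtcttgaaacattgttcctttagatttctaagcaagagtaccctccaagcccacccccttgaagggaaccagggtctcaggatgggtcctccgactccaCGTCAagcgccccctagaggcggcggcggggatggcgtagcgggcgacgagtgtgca
Gps2: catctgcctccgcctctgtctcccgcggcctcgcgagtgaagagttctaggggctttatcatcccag
Capitals mark the letters CGTCA, the reverse complement of TGACG, the core of the cAMP response element (CRE) that CREM, a transcription factor of spermatids, is known to bind. In the Elavl4 stretch these letters begin at position -57 from the start. On either strand TGACG was in 17.8% of all 32851 RefSeq promoter windows of 250 bases, and the whole element TGACGTCA, which contains the core on both strands, in 1.55%. The core was in 3 of the 4 Elavl4 windows, but 2 of these overlap by 234 bases and hold the same match, so that 2 separate matches were found. It was in 0 windows of the other matched members, and 0 of the 9 windows held the whole element. These are matches of letters and not sites.

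The p160 coactivators were measured at 3 loci, Ncoa1 on chromosome 12 (4247362 to 4477182), Ncoa2 on chromosome 1 (13139105 to 13374083) and Ncoa3 on chromosome 2 (165992636 to 166073242). Ncoa2, which encodes TIF2 or GRIP1, had 1811 and 1670.3 normalised read counts in elongating KO-labelled libraries, against 1375 and 1356 in elongating WT libraries. In round cells it had 1546 and 1649 in KO-labelled libraries, against 1512.5 and 1439 in WT libraries. The elongating groups did not overlap and its log2 fold change there was 0.35 (SE 0.05, limma adjusted p = 5.08e-05), while in round cells it was 0.11 (SE 0.05, adjusted p = 0.118). The direction in elongating cells depends on the scaling: it was -0.21 with total-count scaling (adjusted p = 0.00143) and -0.15 with library sizes that leave out the 50 most abundant genes (adjusted p = 0.0157).

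Ncoa1, which encodes SRC-1, had 209 and 243 normalised read counts in elongating KO-labelled libraries, against 239.8 and 273 in elongating WT libraries, and these groups overlap. Round cells were higher, with 610.5 and 640.1 in KO-labelled libraries, against 615 and 597 in WT libraries, and again the groups overlap. Its log2 fold change, KO-labelled over WT, was -0.18 in elongating cells (SE 0.09, adjusted p = 0.101) and 0.04 in round cells (SE 0.09, adjusted p = 0.756). Without elongating KO-labelled replicate 2 or without elongating WT replicate 1 the elongating value passed the test, at -0.29 and -0.27. Ncoa3, the coactivator AIB1, had 196 and 190.4 in elongating KO-labelled libraries, against 209 and 206 in elongating WT libraries. Its round values were 424 and 464 in KO-labelled libraries, against 478 and 515 in WT libraries. The libraries did not overlap at either stage, yet the log2 fold changes of -0.10 (SE 0.08, adjusted p = 0.31) and -0.16 (SE 0.08, adjusted p = 0.158) did not pass. Ncoa3 shares up to 154 bases of exon with Sulf2 on the opposite strand. Sulf2 averaged 765 ± 56.3 in elongating KO-labelled and 526 ± 33.0 in elongating WT libraries (SD, n = 2 each), above Ncoa3, and rose by 0.54 (adjusted p = 0.000716). With total-count scaling both Ncoa1 and Ncoa3 fell in elongating cells, by 0.74 and 0.66 on the log2 scale, beside a median of -0.61 over all genes.

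Since the p160 genes are counted in the same library, the share of each in their summed reads does not depend on the scaling. These shares were computed after the values had been seen and carry no test. Ncoa2 held 81.7% and 79.4% of p160 reads in elongating KO-labelled libraries, against 75.4% and 73.9% in elongating WT libraries, with 95% Wilson intervals of 79.4% to 83.8% and 76.9% to 81.7%, against 73.1% to 77.6% and 71.4% to 76.2%. Round cells gave 59.9% and 59.9% in KO-labelled libraries, against 58.0% and 56.4% in WT libraries. The round intervals were 58.4% to 61.4% and 58.5% to 61.3%, against 56.5% to 59.5% and 54.9% to 57.9%. The interval of round WT replicate 1 overlaps both KO-labelled ones. The share of Ncoa2 was thus higher in the KO-labelled libraries at both stages and higher in elongating than in round cells. Ncoa3 showed the reverse order, with 8.84% and 9.05% in elongating KO-labelled libraries, against 11.4% and 11.2% in elongating WT libraries, and 16.4% and 16.8% in round KO-labelled libraries, against 18.3% and 20.2% in round WT libraries. Ncoa1 held 9.45% and 11.6% in elongating KO-labelled libraries, against 13.1% and 14.9% in elongating WT libraries, and 23.3% to 23.7% in all 4 round libraries. Both elongating KO-labelled Ncoa3 intervals (7.33% to 10.6%, 7.50% to 10.9%) overlap both WT ones (9.89% to 13.2%, 9.62% to 13.1%). The Ncoa3 interval of round WT replicate 1 (17.2% to 19.6%) overlaps both KO-labelled ones (15.3% to 17.6%, 15.8% to 17.9%). The Ncoa1 interval of elongating KO-labelled replicate 2 (9.81% to 13.6%) overlaps both WT ones (11.5% to 15.0%, 13.0% to 16.9%). All intervals cover counting error only, and reads were counted without molecular identifiers.

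Gps2 (chromosome 11, 69913888 to 69916591), the corepressor subunit, had 9346 and 9403 normalised read counts in elongating KO-labelled libraries, against 5185 and 5259 in elongating WT libraries. In round cells it had 2616 and 2580.0 in KO-labelled libraries, against 2651 and 2608 in WT libraries. The elongating KO-labelled libraries stood above all others and the round groups overlapped. Its log2 fold change, KO-labelled over WT, was 0.84 in elongating cells (SE 0.03, limma adjusted p = 2.91e-11) and -0.02 in round cells (SE 0.03, adjusted p = 0.748). The difference between these effects was 0.86 (SE 0.05, adjusted p = 6.23e-09). The elongating rise held its call in all 18 alternatives, with values from 0.28 under total-count scaling to 0.85. In round cells the same scaling gave -0.11 (adjusted p = 0.022), a fall that the deposited scaling did not call.

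As reads scaled to the library's total (RPM), Gps2 had 207 and 212 RPM in elongating KO-labelled libraries, against 172 and 173 in elongating WT libraries, and 225 and 221 in round KO-labelled libraries, against 242 and 237 in round WT libraries. On that scale the KO-labelled libraries are higher in elongating cells and lower in round cells. Neurl4, which ends 67 bases upstream of Gps2, had 2337 and 2251 normalised read counts in elongating KO-labelled libraries, against 1614 and 1589 in elongating WT libraries, and rose by 0.52 (SE 0.04, adjusted p = 9.83e-08). Scaled to library totals, Neurl4 averaged 51.2 ± 0.656 in elongating KO-labelled and 52.9 ± 0.868 RPM in elongating WT libraries (SD, n = 2 each), so its rise is not seen on that scale. Reads that run from Neurl4 into Gps2 cannot be told from reads of Gps2 in gene totals.

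Elavl4 (chromosome 4, 110203722 to 110351909), best known as a neuronal RNA-binding protein, had 535 and 517 normalised read counts in elongating KO-labelled libraries, against 241 and 277 in elongating WT libraries. In round cells it was low, with 28.6 and 32.7 in KO-labelled libraries, against 35.0 and 30.3 in WT libraries. These values rest on 276 and 274 recovered reads in elongating KO-labelled libraries, against 187 and 192 in elongating WT libraries, and on 45 and 58 in round KO-labelled libraries, against 55 and 50 in round WT libraries. Its log2 fold change, KO-labelled over WT, was 1.02 in elongating cells (SE 0.14, adjusted p = 2.19e-05) and -0.09 in round cells (SE 0.14, adjusted p = 0.696). The difference between the effects was 1.11 (SE 0.20, adjusted p = 0.000463). Its elongating rise was called in all 18 alternatives, from 0.46 to 1.12.

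Elavl1 (chromosome 8, 4285382 to 4325413), the widely expressed family member HuR, had 211 and 153 normalised read counts in elongating KO-labelled libraries, against 248 and 229 in elongating WT libraries. Round cells had 612 and 561 in KO-labelled libraries, against 566 and 574 in WT libraries, and the round groups overlap. Elavl1 fell by 0.40 on the log2 scale in elongating KO-labelled libraries (SE 0.12, adjusted p = 0.00942) and stood at 0.04 in round cells (SE 0.12, adjusted p = 0.847). The 2 elongating KO-labelled libraries differ from each other, and without replicate 2 of that group the value was -0.17 (adjusted p = 0.112). Without elongating WT replicate 1 it was -0.35 (adjusted p = 0.081). The fall was larger with total-count scaling, at -0.96 (adjusted p = 2.07e-06), and without the 50 most abundant genes, at -0.90, beside medians of all genes of -0.61 and -0.55. The difference between the stages' effects, -0.44, did not pass (SE 0.17, adjusted p = 0.0502). Elavl1 shares up to 181 bases of exon with Ccl25 on the opposite strand, which the kit does not separate, and Ccl25 averaged 15.2 ± 5.10 in elongating KO-labelled and 18.2 ± 5.30 in elongating WT libraries (SD, n = 2 each).

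Within the ELAV pair, Elavl4 held 71.7% and 77.2% of the summed Elavl1 and Elavl4 reads in elongating KO-labelled libraries, against 49.3% and 54.7% in elongating WT libraries. The 95% Wilson intervals were 67.0% to 76.0% and 72.5% to 81.2%, against 44.3% to 54.4% and 49.5% to 59.8%. In round cells the share was 4.47% and 5.51% in KO-labelled libraries, against 5.83% and 5.01% in WT libraries. The share was thus higher in elongating than in round cells in both genotypes, and in elongating cells it was higher with the KO label, whatever the scaling. Counting the other family members Elavl2 and Elavl3 in the total gave 69.7% and 74.5% in elongating KO-labelled libraries, against 46.4% and 52.0% in elongating WT libraries. Elavl2 fell by 0.80 in elongating KO-labelled libraries (SE 0.28, adjusted p = 0.0238) at means of 10.5 ± 3.85 against 18.5 ± 2.43, and Elavl3 stood at 0.40 on the log2 scale without passing (SE 0.33, adjusted p = 0.318).

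**Figure D2:**
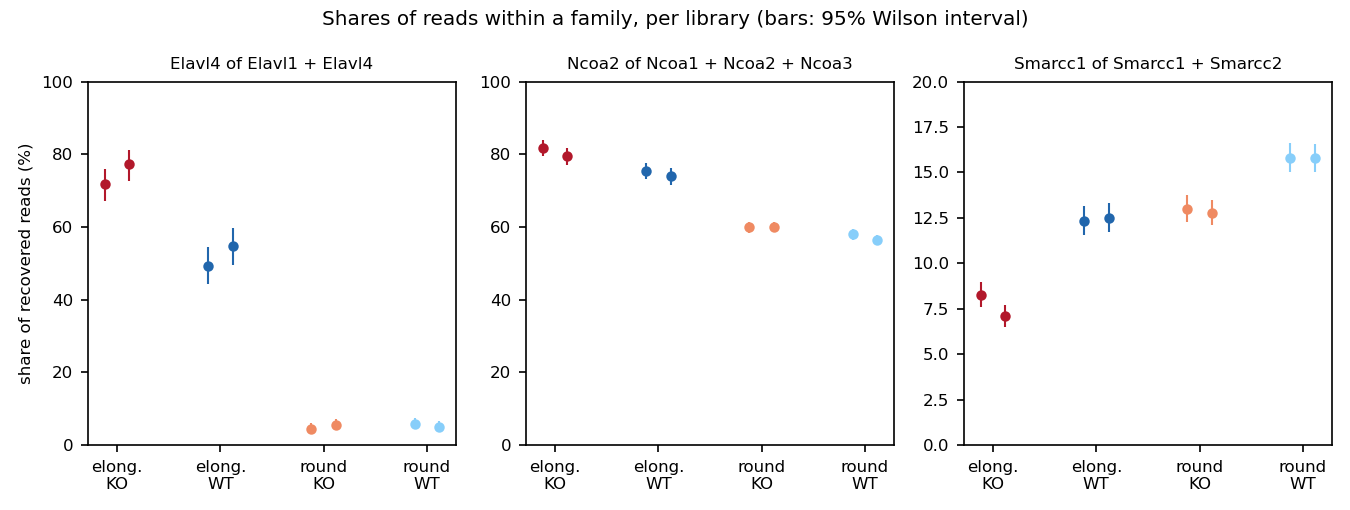
Share of recovered reads (percent, y axis from 0, up to 20% in the right panel) of Elavl4 in Elavl1 plus Elavl4, Ncoa2 in the p160 genes, and Smarcc1 in Smarcc1 plus Smarcc2, per library with 95% Wilson intervals. In elongating cells the KO-labelled libraries lie above WT for Elavl4 (71.7% and 77.2% against 49.3% and 54.7%) and below WT for Smarcc1 (8.26% and 7.08% against 12.3% and 12.5%).

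Smarcc1 (chromosome 9, 110117708 to 110240178), a scaffold of the BAF complex, had 1028 and 867 normalised read counts in elongating KO-labelled libraries, against 1047 and 1131 in elongating WT libraries. In round cells it had 629 and 624 in KO-labelled libraries, against 821 and 811 in WT libraries. It was the member called in round cells, where it fell by 0.38 on the log2 scale (SE 0.07, limma adjusted p = 0.000917), with values from -0.47 to -0.37 and a call in all 18 alternatives. In elongating cells the fall was 0.20 (SE 0.07, adjusted p = 0.0264). That call ended without elongating KO-labelled replicate 2 (-0.08, adjusted p = 0.304) and without elongating WT replicate 2 (-0.15, adjusted p = 0.198), and the DESeq2 test gave an adjusted p of 0.0574. The fall was larger with total-count scaling, at -0.77 (adjusted p = 8.56e-08), and without the 50 most abundant genes, at -0.70. Medians of all genes were -0.61 and -0.55 under these scalings, against -0.07 with the deposited one. The difference between the stages' effects was 0.18 (SE 0.10, adjusted p = 0.197), which did not pass.

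The paralogue Smarcc2, BAF170, which pairs with or replaces Smarcc1 in BAF complexes, averaged 11397 ± 23.0 in elongating KO-labelled and 7685 ± 334 in elongating WT libraries, and rose by 0.57 on the log2 scale (SE 0.04, adjusted p = 2.62e-09). That rise is on the deposited scaling. The pair's summed reads were 6415 and 6497 in elongating KO-labelled libraries, which held 23317319 and 23526694 reads. In elongating WT libraries they were 6590 and 6277 of 23410938 and 21090436 reads. Against library totals the pair's reads thus show no rise. In round cells Smarcc2 averaged 4238 ± 37.6 in KO-labelled and 4350.1 ± 37.4 in WT libraries (SD, n = 2 each), a log2 fold change of -0.04 that did not pass (adjusted p = 0.459). Smarcc1 held 8.26% and 7.08% of the summed reads of this pair in elongating KO-labelled libraries, against 12.3% and 12.5% in elongating WT libraries. The round values were 13.0% and 12.8% in KO-labelled libraries, against 15.8% and 15.8% in WT libraries, so the share was lower with the KO label at both stages. Smarcc1 shares up to 123 bases of exon with Dhx30 on the opposite strand. Dhx30 averaged 424 ± 10.4 in elongating KO-labelled and 947 ± 57.9 in elongating WT libraries, lower by 1.15 on the log2 scale (adjusted p = 1.02e-10), and in round cells rose by 0.16 (adjusted p = 0.0285) while Smarcc1 fell.

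Med12 (X chromosome, 101274030 to 101297465), which encodes a Mediator kinase module subunit, had 264 and 268 normalised read counts in elongating KO-labelled libraries, against 361 and 323 in elongating WT libraries. Its round values were 769 and 774 in KO-labelled libraries, against 896 and 863 in WT libraries. The groups did not overlap at either stage, with the KO-labelled libraries lower. Med12 fell by 0.36 on the log2 scale in elongating cells (SE 0.07, limma adjusted p = 0.000498), and all 18 alternatives called that fall, from -0.92 to -0.28. The value of -0.92 came with total-count scaling, beside a median of -0.61 over all genes. The round value of -0.19 did not pass (SE 0.07, adjusted p = 0.0531), though 9 of 18 alternatives called it, and the difference of -0.17 between stages did not pass (SE 0.10, adjusted p = 0.198). Med12 shares exon bases with Gm21986 on the same strand, a transcript that is not among the genes of the table.

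**Figure D3:**
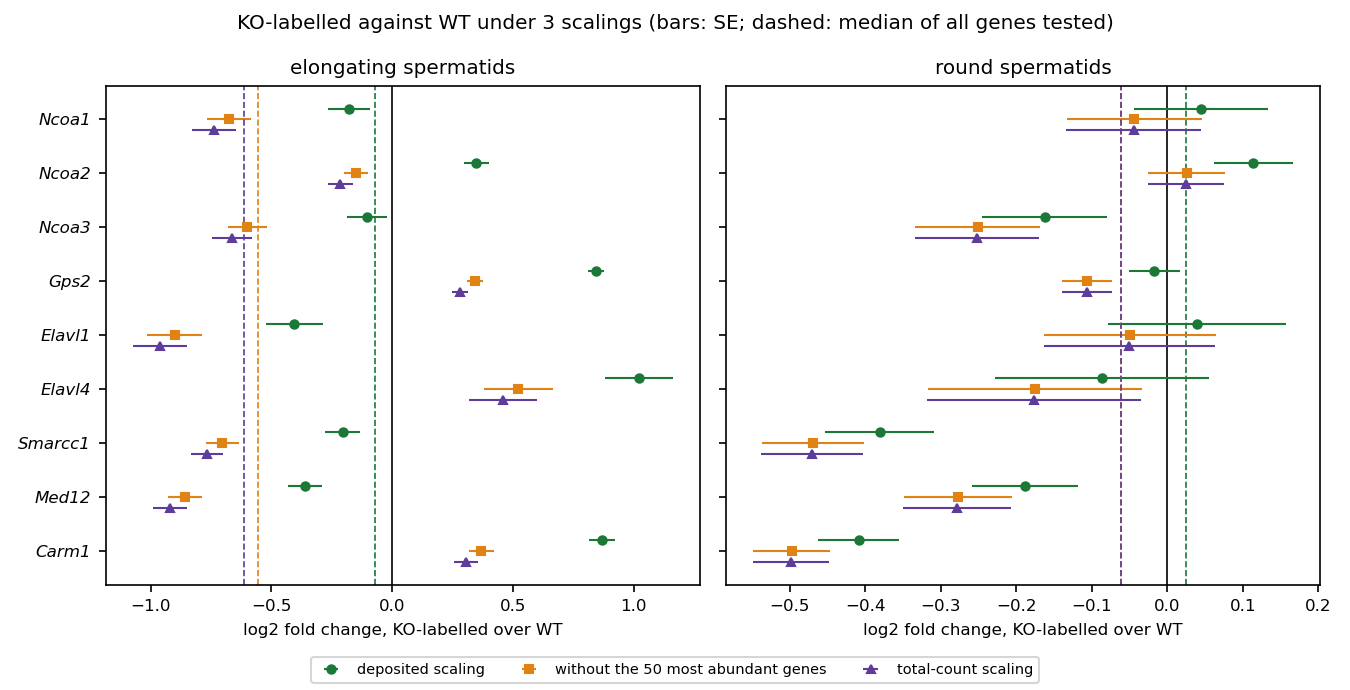
Log2 fold change (x axis, KO-labelled over WT, a separate range per panel) of the members and Carm1 in elongating and round spermatids under the deposited scaling, library sizes without the 50 most abundant genes, and total-count scaling. Bars are standard errors and dashed lines the median of all genes tested, which in the right panel coincide for the last 2 scalings at -0.06; in elongating cells Gps2 and Elavl4 stay above 0 in all 3, and Ncoa2 changes sign.

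The effect of the KO label was compared between stages for each member. The effect was larger in elongating cells for Gps2, Elavl4 and Ncoa2 (3 members, where 19.3% of all genes had a called positive difference), and 0 members had a called negative difference (17.5% of all genes). For Ncoa2 the difference was 0.23 (SE 0.07, limma adjusted p = 0.0226), and it turned to -0.24 with total-count scaling and -0.18 without the 50 most abundant genes. The Ncoa2 call was also lost without round KO-labelled replicate 1 (0.19), round WT replicate 1 (0.20), elongating KO-labelled replicate 1 (0.18), elongating WT replicate 1 (0.25) or elongating WT replicate 2 (0.22). The differences of Gps2 and Elavl4 were called in all 17 alternatives, from 0.39 to 0.87 and from 0.64 to 1.21. With total-count scaling 2 members had a higher and 6 a lower effect in elongating cells, where 858 of all genes were higher and 7071 lower, against 3031 and 2750 with the deposited scaling.

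Between stages, Elavl4 had the widest range of the members: its mean in elongating KO-labelled libraries was 17.2 times that in round KO-labelled libraries. These contrasts use the same elongating and round libraries as those above, so they are given for each member side by side. In KO-labelled cells Elavl4 was higher in elongating than in round cells by 4.06 on the log2 scale, Gps2 by 1.85, Smarcc1 by 0.59 and Ncoa2 by 0.12 (limma adjusted p = 0.0416 for Ncoa2). Elavl1, Med12, Ncoa1 and Ncoa3 were lower, at -1.70, -1.53, -1.47 and -1.19. In WT cells Elavl4 was higher by 2.95, Gps2 by 0.99 and Smarcc1 by 0.41, while Med12, Elavl1, Ncoa3 and Ncoa1 stood at -1.36, -1.26, -1.25 and -1.24. Ncoa2 did not pass in WT cells (-0.11, adjusted p = 0.063). The members called higher and lower were 4 and 4 in KO-labelled cells, where 42.6% and 41.8% of all genes were, and 3 and 4 in WT cells, where 41.7% and 40.2% were. Sertoli markers were higher in elongating libraries for 17 of 17 genes in both genotypes. Of 15 macrophage and leukocyte markers 14 were higher and 1 lower in KO-labelled cells, and 15 and 0 in WT cells. Of 15 peritubular and vascular markers these counts were 13 and 1, and 13 and 0. The part of such cells in the stage differences was not tested.

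Scaling decides part of this picture. With total-count scaling Elavl4 was the member that stayed higher in elongating cells, by 2.14 in KO-labelled and 1.51 in WT cells, and the other 7 were lower at both genotypes, beside medians of all genes of -1.87 and -1.42. Gps2 then stood at -0.09 in KO-labelled and -0.48 in WT cells, and Smarcc1 at -1.35 and -1.05. Ncoa1, Ncoa3, Elavl1 and Med12 were lower in elongating cells under all 18 alternatives in both genotypes, and Elavl4 was higher in all 18. Relative to the median of all genes, Gps2 was above it under each of the 3 scalings.

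**Figure D4:**
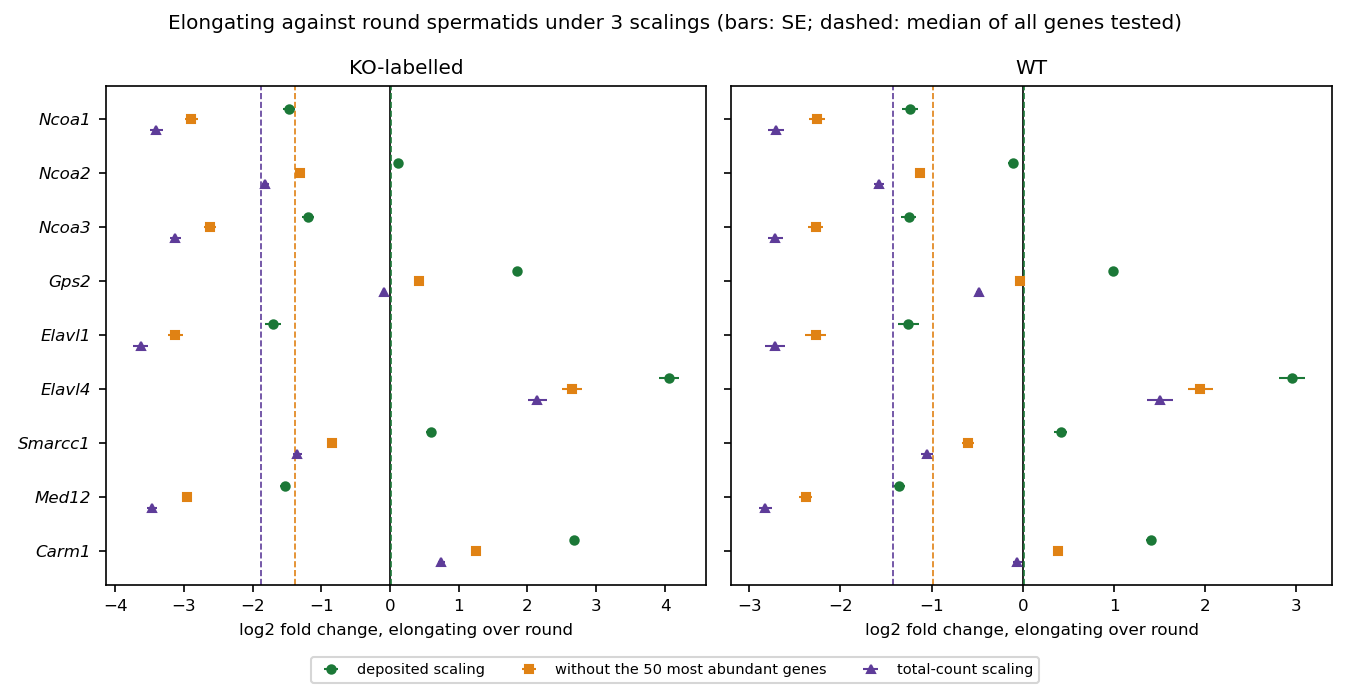
Log2 fold change (x axis, elongating over round, a separate range per panel) of the members and Carm1 in KO-labelled and WT spermatids under the same 3 scalings, with standard errors and the median of all genes tested as dashed lines. Elavl4 lies right of 0 and Ncoa1, Ncoa3, Elavl1 and Med12 lie left of 0 under each, while Gps2, Smarcc1 and Ncoa2 move across 0 in KO-labelled cells.

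The order of the 4 groups differed between members. Gps2 and Elavl4 ran elongating KO-labelled, elongating WT, round WT, round KO-labelled from high to low, which is also the order of Carm1, and their round groups overlapped. Ncoa1 and Elavl1 ran round KO-labelled, round WT, elongating WT, elongating KO-labelled, with overlapping round groups in both and overlapping elongating groups in Ncoa1. Ncoa3 and Med12 ran round WT, round KO-labelled, elongating WT, elongating KO-labelled, with no overlap between neighbours. Smarcc1 was highest in elongating WT cells and lowest in round KO-labelled cells. Ncoa2 was highest in elongating KO-labelled and lowest in elongating WT cells, with only a 1.27-fold range of means. All these levels are on the deposited scaling.

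Levels were compared between members per kilobase of exon. The length is the union of all annotated exons of a gene, which need not be that of the transcripts present. Gps2 was the highest member in every group, at 5845 normalised read counts per kilobase in elongating KO-labelled and 3256 in elongating WT cells, and 1619.7 in round KO-labelled and 1639 in round WT cells. Elavl4 was the lowest in round cells (5.69 in KO-labelled, 6.06 in WT) and ranked after Gps2, Smarcc1 and Ncoa2 in elongating cells, at 97.6 in KO-labelled and 48.1 in WT. Elavl1 was the lowest in elongating cells, at 17.6 in KO-labelled and 23.0 in WT. Before division by length Elavl1 stood at 182 against 193 for Ncoa3 in KO-labelled, and at 238 against 208 in WT.

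For each member the 2 genes with the most similar pattern were found by the root mean square difference of log2(value + 1), each gene centred on its own mean over the 8 libraries. Gps2 was closest to Col4a3bp (0.05) and Fam89b (0.05), and Elavl4 to Vmn2r-ps54 (0.11) and Cep85l (0.11). Ncoa2 was closest to Lpar1 (0.03) and Capza1 (0.05), Ncoa1 to Efcab14 (0.06) and Cox5b (0.06), and Ncoa3 to Rpn2 (0.05) and Naa15 (0.05). Elavl1 was closest to Sel1l (0.05) and Ints9 (0.06), Smarcc1 to Tmem209 (0.06) and Adgrl3 (0.06), and Med12 to Prdm2 (0.05) and Synj1 (0.06). Between members the closest pair was Ncoa1 and Ncoa3 (0.14). Each member had closer genes outside the set, but far more genes were searched there, so no conclusion about the members is drawn. All genes share the libraries and their scaling.

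The other genes of the same complexes, 101 tested in 6 lists, moved in both directions in elongating cells. Their counts stand beside 27.3% of all genes that rose and 27.7% that fell in elongating cells, and 19.4% and 12.6% in round cells. In the NCoR corepressor complex that holds GPS2, 2 of 7 genes rose and 2 fell. Tbl1xr1, which encodes a subunit that exchanges corepressors for coactivators, averaged 1219 ± 28.5 in elongating KO-labelled and 983 ± 2.74 in elongating WT libraries (SD, n = 2 each) and rose by 0.31 (limma adjusted p = 0.000331). Coro2a, an actin-binding subunit, averaged 866 ± 62.4 in elongating KO-labelled and 1549 ± 30.2 in elongating WT libraries and fell by 0.84 (adjusted p = 1.65e-09). Ncor1 rose by 0.28 and Hdac3 fell by 0.37 there. These rises are on the deposited scaling, and with total-count scaling 0 of the 7 genes rose in elongating cells and 6 fell. In round cells 0 of 7 rose and 1 fell, Tbl1xr1 by 0.20, while edgeR and DESeq2 each called 1 rise and 1 fall.

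Of 12 other nuclear receptor coactivators, 2 rose and 4 fell in elongating cells. Ncoa4 rose by 1.24 (SE 0.04, adjusted p = 6.47e-12), with means of 4349 ± 109 in KO-labelled and 1845 ± 78.7 in WT libraries, and Ncoa7 fell by 0.60. In round cells 2 rose and 5 fell, with the acetyltransferase gene Crebbp at 0.24 and Ncoa7 at -1.11. Ncoa7 averaged 507 ± 23.7 in elongating KO-labelled and 770.4 ± 2.54 in elongating WT libraries, and 42.7 ± 6.49 in round KO-labelled and 93.1 ± 1.53 in round WT libraries (SD, n = 2 each).

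Of 25 BAF and PBAF genes other than Smarcc1, 5 rose and 11 fell in elongating cells. Smarcd3 rose by 1.43 (SE 0.18, adjusted p = 7.4e-06) and Arid1b, which is specific to BAF, by 1.42 (SE 0.08, adjusted p = 8.16e-10). Ss18l1 fell by 0.96 (SE 0.32, adjusted p = 0.0208). It was low, at means of 19.0 ± 7.73 in KO-labelled and 36.6 ± 4.81 in WT libraries (SD, n = 2 each). In round cells 3 rose and 4 fell, with Arid1b at 0.47 and Brd9 at -0.27. The ATPase gene Smarca4 had log2 fold changes of 0.03 in elongating and 0.12 in round cells, and neither passed (adjusted p = 0.661 and 0.0544).

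Of 31 other Mediator genes, 6 rose and 10 fell in elongating cells. Med14, the backbone subunit, rose by 0.99 (SE 0.08, adjusted p = 4.06e-08) and Med4 fell by 1.18 (SE 0.13, adjusted p = 2.13e-06). Within the kinase module that holds MED12, Med13l rose by 0.85 and Med13 by 0.14, Cdk8 fell by 0.50, and Ccnc, at -0.43, did not pass (SE 0.22, adjusted p = 0.123). These values are on the deposited scaling, and with total-count scaling 3 of the 31 genes rose in elongating cells and 26 fell. In round cells 9 rose and 3 fell, with Med26 at 0.45 and Med4 at -0.74. Med26 averaged 2693 ± 95.7 in round KO-labelled and 1974 ± 64.5 in round WT libraries (SD, n = 2 each).

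Of 24 other known partners and substrates of CARM1, 5 rose and 11 fell in elongating cells. Esr1, the estrogen receptor gene, rose by 0.66 (SE 0.25, adjusted p = 0.0365), and Runx1, a transcription factor of blood cells, fell by 1.92 (SE 0.32, adjusted p = 0.000117) at means of 35.4 ± 0.643 in KO-labelled and 136 ± 9.41 in WT libraries (SD, n = 2 each). The macrophage markers given above were also lower there. Pabpc1, the poly A binding protein gene and a known CARM1 substrate, fell by 0.68 in elongating cells (SE 0.03, adjusted p = 3.06e-11). In round cells 5 rose and 2 fell, with Notch1 at 0.84 and the glycolytic gene Pkm at -0.41. Notch1 was low there, at means of 25.2 ± 2.15 in KO-labelled and 14.1 ± 5.32 in WT libraries. On the deposited scaling Pkm moved the other way in elongating cells, where it rose by 0.36 (adjusted p = 7.86e-08). With total-count scaling 0 of the 24 genes rose in elongating cells, so this rise is not seen on that scale.

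The list medians of log2 fold change in elongating cells were -0.12 for the coactivators, -0.037 for NCoR, -0.18 for BAF and PBAF, -0.20 for Mediator and -0.37 for the other partners, against -0.07 over all genes tested. In round cells these medians were -0.21, -0.13, 0.02, -0.06 and -0.04, against 0.03. The ELAV list holds only Elavl2 and Elavl3. Total-count scaling turned the balance in elongating cells to 1 rise and 10 falls for the coactivators, 0 and 6 for NCoR, 2 and 21 for BAF and PBAF, 3 and 26 for Mediator and 0 and 20 for the other partners. Over all genes that scaling gave 1394 rises and 9854 falls in elongating cells, against 4279 and 4348 with the deposited scaling. In round cells total-count scaling gave 1 rise and 8 falls for the coactivators, 0 and 3 for NCoR, 2 and 7 for BAF and PBAF, 6 and 8 for Mediator and 4 and 6 for the other partners. The balance of the last 2 lists is thus turned from more rises to more falls. Without the 50 most abundant genes these were 6 and 6 for Mediator and 4 and 6 for the other partners. Over all genes total-count scaling gave 2197 rises and 3060 falls in round cells, against 3041 and 1977 with the deposited scaling. For the stages the counts were 2617 higher and 11422 lower in KO-labelled cells, against 6677 and 6552, and 3067 and 10799 in WT cells, against 6548 and 6300.

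**Figure D5:**
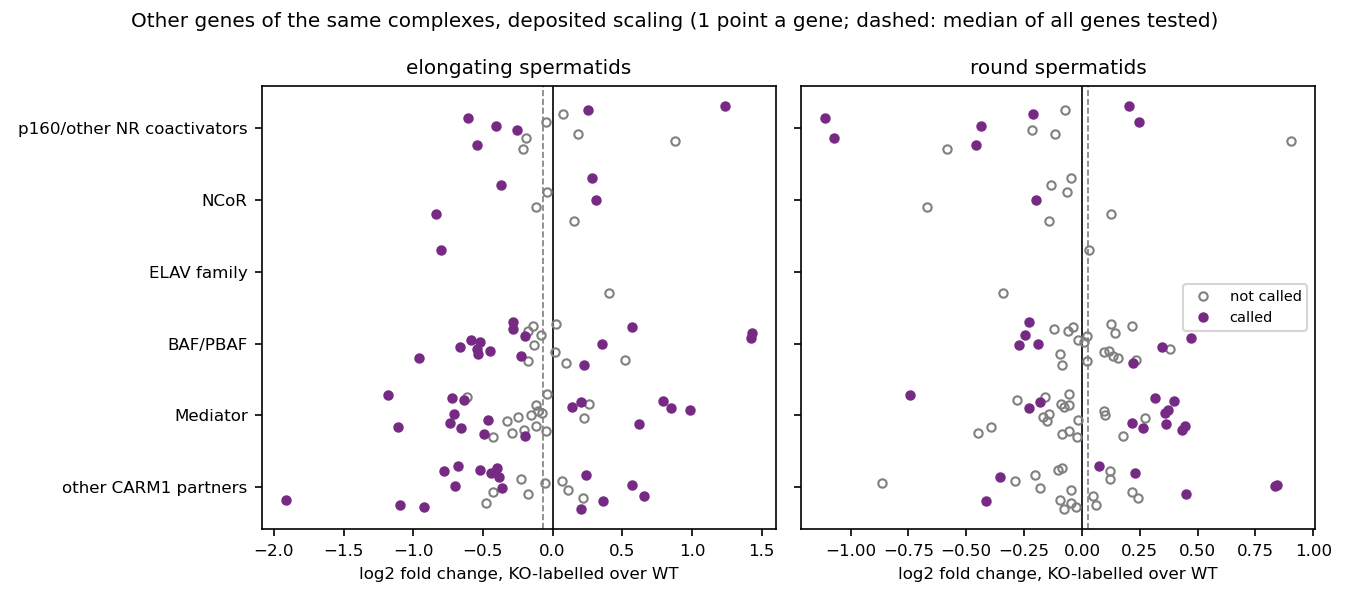
Log2 fold change (x axis, KO-labelled over WT, deposited scaling, a separate range per panel) of the 101 tested genes of 6 lists that share a complex or a role with the members, in elongating and round spermatids. Filled points passed an adjusted p under 0.05, open points did not, vertical offsets within a list carry no value, and dashed lines are the median of all genes tested; in elongating cells every list except the ELAV genes has filled points on both sides of 0.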

How the data were processed

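The authors deposited a table of 1 normalized signal value per gene and library. Each is a read count over a library size factor chosen by the authors: multiplying back gave whole reads (tolerance 1e-06) in 100.0% of cases. DESeq 1.16.0, HTSeq 0.6.0, TopHat2 2.0.10 and CASAVA 1.8.2 are listed with mm10 and GRCm38, per the submitters' processing notes. The sources used here do not give their roles, the strand setting or the annotation. Libraries were poly A selected and made with TruSeq v2, per the labels' protocols.

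Values were tested as log2(value + 1) with limma 3.58.1 (R 4.3.3, empirical Bayes trend) in 1 model of all 8 libraries with a mean for each of the 4 groups (4 residual degrees of freedom). A pseudocount of 1 understates the change of low genes. Testing covered genes that reached 10 in 2 or more libraries, and calls have a two-sided Benjamini-Hochberg adjusted p under 0.05 over all of them. "Rose" and "fell" mean called.

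Alternatives were pseudocounts of 0.5 and 5, no filter or a filter at 50, total-count scaling, library sizes without the 50 most abundant genes, only the 4 libraries compared, a replicate block, leaving out each library, and edgeR 4.0.16 and DESeq2 1.42.0 on the recovered reads. Positions, exon lengths and overlaps come from GENCODE M21 (GRCm38). Libraries of a group differed by more than sampling noise (chi-square per gene 1.39 to 2.39) and were counted separately.

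The members and gene lists were chosen with earlier results of these data known. Named are all members, Carm1, the 2 most similar genes per member, and per list the called genes with the largest rise and fall. The list of NCoR complex genes as first chosen holds 1 more gene, which is not reported here and is left out of the counts. Other genes of the lists, Neurl4 and overlapping genes were named after their values were seen. Of the 9 marker lists, the spermatocyte, spermatogonium, Leydig, peritubular and red blood cell lists had 4 and 9, 2 and 5, 0 and 0, 7 and 2, and 0 and 0 genes called higher and lower with the KO label in elongating cells.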

Additional observations from a re-analysis of the deposited data

Results flagged for a closer look

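The effect of the KO label differed between elongating and round spermatids, by a test of the difference itself, in 3 members. The difference, elongating minus round, was 1.11 on the log2 scale for Elavl4 (limma adjusted p = 0.000463), 0.86 for Gps2 (adjusted p = 6.23e-09) and 0.23 for Ncoa2 (adjusted p = 0.0226). In elongating cells the KO-labelled libraries were above both WT libraries for all 3 genes. The value of Ncoa2 changes sign with the scaling, while those of Elavl4 and Gps2 do not.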

How the results depend on the processing

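The calls that held in all alternatives were Gps2, Elavl4 and Med12 in elongating cells, Smarcc1 in round cells, Gps2 and Elavl4 for the difference between stages, and Ncoa1, Ncoa3, Elavl1, Elavl4 and Med12 for elongating against round cells in both genotypes. Counts of called genes in both directions together stayed within 1.5 times in all alternatives, but counts in 1 direction did not. Total-count scaling moved them as given above. Without the 50 most abundant genes 1669 rose and 9280 fell in elongating cells, 3010 fell in round cells, 1069 differences were higher and 6352 lower, and between stages 3476 and 10327 genes were higher and lower in KO-labelled and 3918 and 9636 in WT cells. Round falls, 1977 as reported, were 1239 and 1182 without round WT replicates 1 and 2 and 3163 with edgeR, and elongating falls, 4348 as reported, were 2760 with DESeq2. Values below are log2 fold changes in the same direction as above, and the cause of each change was not tested.

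Total-count scaling, then library sizes without the 50 most abundant genes, gave these values. In elongating cells Ncoa1 was -0.74 and -0.68, Ncoa2 -0.21 and -0.15, and Ncoa3 -0.66 and -0.60. In round cells Ncoa1 was -0.0447 and -0.0437, Elavl1 -0.0505 and -0.0496, Ncoa3 -0.25 and -0.25, Gps2 -0.11 and -0.11, and Med12 -0.28 and -0.28. For the difference between stages Ncoa1 was -0.69 and -0.63, Ncoa2 -0.24 and -0.18, Ncoa3 -0.41 and -0.35, Elavl1 -0.91 and -0.85, Smarcc1 -0.30 and -0.23, and Med12 -0.64 and -0.58. For elongating against round KO-labelled cells Ncoa2 was -1.82 and -1.31, Smarcc1 -1.35 and -0.84, and Gps2 -0.0898 with total counts. For WT cells Ncoa2 was -1.58 and -1.13, Gps2 -0.48 and -0.0294, Smarcc1 -1.05 and -0.60, and Carm1 -0.0608 with total counts.

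With edgeR, Ncoa2 was 0.12, Ncoa3 -0.16 and Med12 -0.19 in round cells, all called, and Elavl1 -0.47 for the difference. Ncoa2 was -0.0338 between stages in KO-labelled and -0.23 in WT cells. With DESeq2 the calls of Smarcc1 in elongating cells (-0.20) and of Ncoa2 between stages in KO-labelled cells (0.12) were lost. Fitting only the 4 libraries compared called Ncoa2 (0.11), Ncoa3 (-0.16) and Med12 (-0.19) in round cells and Ncoa2 in WT cells (-0.11), and lost Ncoa2 in KO-labelled cells (0.12). A filter at 50 called Med12 in round cells (-0.19) and the difference of Elavl1 (-0.44), and a pseudocount of 5 did so for Elavl1 as well (-0.44).

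Same-numbered libraries did not deviate together (correlations of -0.0148 to 0.0312 across genes). If the libraries of a group are technical, this can occur with or without pairing, so whether the numbers pair the samples was not settled. With the replicate block 2788 genes rose and 1779 fell in round cells and 4161 and 4233 in elongating cells. The block lost Smarcc1 in elongating cells (-0.20) and Ncoa2 between stages in KO-labelled cells (0.12), and called the difference of Elavl1 (-0.44).

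Leaving out each library in turn changed a call or a sign of these values. In elongating cells Ncoa1 ranged from -0.29 to -0.0717, Elavl1 from -0.64 to -0.17 and Smarcc1 from -0.33 to -0.0817. In round cells Elavl1 ranged from -0.0240 to 0.10 and Elavl4 from -0.19 to 0.0146, neither called, and Med12 from -0.22 to -0.16, and Med12 was called without any 1 of the 4 elongating libraries. For the difference between stages Ncoa1 ranged from -0.33 to -0.12, Ncoa2 from 0.18 to 0.29, Ncoa3 from -0.00590 to 0.12 without a call, Elavl1 from -0.68 to -0.21 and Smarcc1 from 0.0543 to 0.30. Ncoa1 and Smarcc1 were called there without elongating KO-labelled replicate 2, and Elavl1 without replicate 1 of that group. Between stages Ncoa2 ranged from 0.0647 to 0.18 in KO-labelled cells, where its call held only without round KO-labelled replicate 2 or elongating KO-labelled replicate 2, and from -0.15 to -0.0760 in WT cells, where it was called without either elongating KO-labelled library. Depth limits Elavl4 in round cells, with 45 to 58 reads a library.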
